A study of Mus musculus with 28 samples.

Results

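Ionotropic glutamate receptors are tetrameric cation channels opened by glutamate, and they fall into AMPA, kainate and NMDA classes. AMPA receptors carry most fast excitatory currents. Kainate receptors made with the GluK1 subunit are known from small-diameter dorsal root ganglion (DRG) neurons, where they sit on the peripheral and central endings of nociceptors. NMDA receptors need the obligatory GluN1 subunit together with GluN2 or GluN3 partners. In primary afferents, presynaptic receptors of all these classes are known to modulate transmitter release in the dorsal horn.

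The 10 subunit genes described here were taken by gene symbol: Gria1, Gria2, Gria3 and Gria4 (AMPA), Grik1, Grik3, Grik4 and Grik5 (kainate), and Grin1 and Grin2d (NMDA). All 10 were found among 45952 listed gene rows. Their RNA-seq values came from sensory neurons purified from adult mice, and the study asked whether these neurons differ between males and females. After partial sciatic nerve ligation (SNL), C57BL/6J mice aged 6 weeks to 7 months gave 3 male and 3 female libraries, with the females in estrus. Those neurons were purified from ipsilateral lumbar DRG by magnetic cell sorting (MACS) on day 8 after injury, a method that per the study's methods retains small-diameter nociceptors and lets some erythrocytes through. Uninjured (naïve) AdvGFP mice aged 3 to 6 months, in which the Avil promoter drives EGFP in sensory neurons, gave 11 male and 11 female libraries by fluorescence-activated cell sorting (FACS), a gate that carries attached satellite glia along. The estrus stage of the naïve females was not identified. Each library pooled 2 mice of 1 sex.

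Sequencing depth was 30544219 to 50649730 reads per SNL library and 24800048 to 40035653 reads per naïve library, and 78.4% to 89.8% of the reads mapped uniquely. The sex markers Xist, Eif2s3y and Ddx3y separated all male from all female libraries in both experiments. The 6 listed pan-neuronal markers were detected throughout, with Avil, for example, at 969.6 to 1554 FPKM (fragments scaled to transcript length and library size) in SNL libraries and at 172 to 1220 FPKM in naïve libraries. Of the 22 naïve libraries, 4 (male 2 and 10, female 2 and 11) had a summed level of 17 trunk Hox genes of 0.402 to 0.795 FPKM, against 109 to 191 FPKM in the other 18. The study took trigeminal ganglia for 2 of the naïve replicates and lumbar DRG for the others, but the labels do not mark which. Male 11 had the lowest nociceptor marker score of the naïve libraries (6.57, the mean log2(FPKM + 1) of 8 markers) and the highest large-diameter score (5.76), and males 3, 4 and 7 had RNA integrity numbers (RIN, where low values mean degraded RNA) of 5.2, 6.7 and 5.5.

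The members differ in length and position but share a re-entrant pore loop, where a single codon sets calcium permeability. This codon encodes glutamine in the genome of every AMPA and kainate member and asparagine in both NMDA members. In Gria2 and Grik1 transcripts adenosine deamination is known to change the glutamine codon to an arginine codon (the Q/R site). FPKM values count fragments whichever base was read, so they hold no information on editing. The sequences below, 30 coding bases each from GENCODE M21 (GRCm38), are shown to place the members beside one another at this site, with the site codon in capitals.
Gria1: ggggccttcatgCAGcaaggatgtgacatt
Gria2: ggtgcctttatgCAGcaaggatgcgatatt
Gria3: ggtgcttttatgCAGcaaggatgtgatatt
Gria4: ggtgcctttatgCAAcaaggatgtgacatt
Grik1: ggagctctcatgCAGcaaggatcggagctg
Grik3: ggctccctgatgCAGcaaggatctgaactg
Grik4: ggaggcttcatgCAGcaaggctccactatt
Grik5: ggtggcttcatgCAGcagggctcggagatc
Grin1: ggcgtcctgctcAACtctggcattggggaa
Grin2d: gccctggtgttcAACaactccgtgccagtg
Of these members, Gria4 is the only AMPA or kainate gene whose site codon is CAA rather than CAG. Gria2 and Gria3 share 28 of the 30 bases, the most of any pair, and Grik1 and Grik3 share 24.

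On GRCm38 the Gria2 stretch lies at chr3:80706896-80706925 on the minus strand, in exon 11 of 16 of its longest coding transcript. The Gria1 stretch is at chr11:57243082-57243111 (plus strand, exon 11 of 16), the Gria3 stretch at chrX:41610253-41610282 (plus strand, exon 11 of 16) and the Gria4 stretch at chr9:4464122-4464151 (minus strand, exon 12 of 17). The site codon of Grik1 occupies chr16:87940542-87940544 (minus strand, exon 13 of 18) and that of Grik3 chr4:125691207-125691209 (plus strand, exon 12 of 16), and in both genes the printed stretch runs on into the next exon. The stretches of Grik4 and Grik5 lie at chr9:42547608-42547637 (minus strand, exon 14 of 19) and chr7:25022482-25022511 (minus strand, exon 15 of 20). The NMDA stretches lie at chr2:25297371-25297400 for Grin1 (minus strand, exon 14 of 21) and chr7:45854378-45854407 for Grin2d (minus strand, exon 8 of 12). Exons of Grin1 overlap exons of an opposite-strand gene, Grin1os, which the table lists at 0 FPKM in every library. Without strand information, fragments of the pair cannot be told apart. Grin2d has an opposite-strand overlap of the same kind with Gm45441, for which no value was used here.

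Grik1, which encodes the kainate subunit GluK1, was by far the most abundant member. In SNL males it had 366, 300.4 and 256 FPKM and in SNL females 264, 227.9 and 211.3 FPKM. In naïve males it ranged from 13.8 to 265 FPKM with a median of 157, and in naïve females from 87.9 to 234 FPKM with a median of 144. The SNL values all lay above the naïve median, and the lowest naïve values belonged to males 11 (13.8 FPKM) and 3 (48.7 FPKM). Grik1 made up a median 88.5% of the summed FPKM of the 10 members in SNL libraries (85.6% to 92.9%) and 83.25% in naïve libraries (48.5% to 89.6%). Among all genes that passed the expression filter (at least 1 FPKM in at least 2 SNL or 3 naïve libraries of the same sex), its median percentile was 96.5 in SNL libraries and 94.3 in naïve libraries. The authors' mean normalized read count for Grik1 was 22993 over the SNL libraries and 5287 over the naïve libraries. These counts were normalized within each experiment, so they are not on one scale between experiments.

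**Figure D1:**
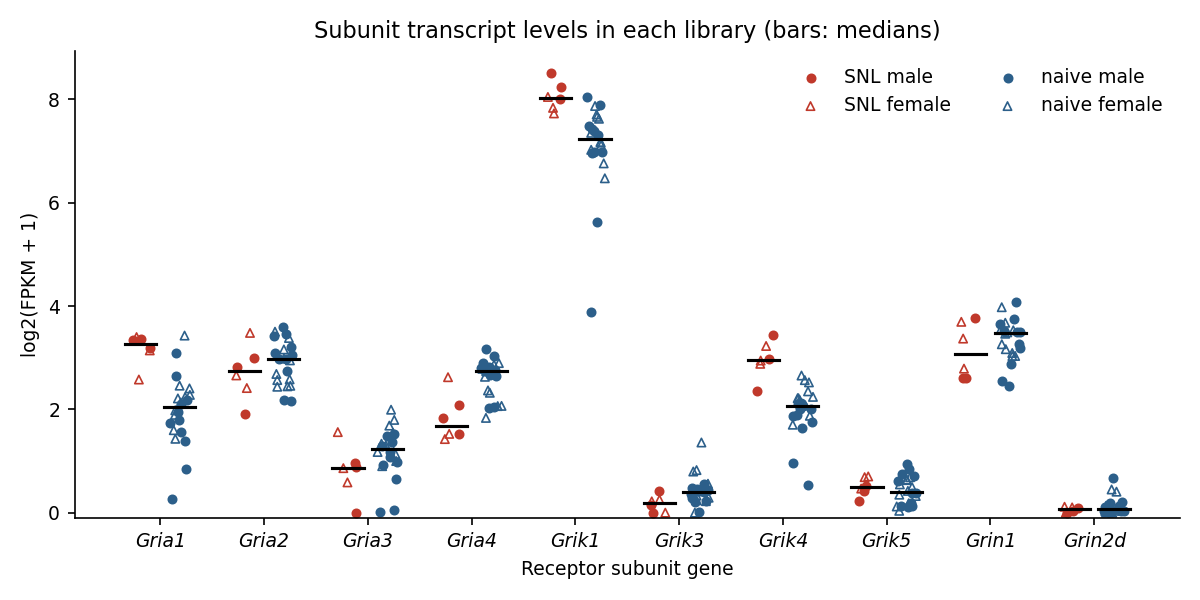
Each point is 1 library, with log2(FPKM + 1) on the vertical axis and the 10 subunit genes along the horizontal axis. SNL libraries are red and naïve libraries blue, males are filled circles and females open triangles, and black bars are medians. Grik1 stands above every other member in all 6 SNL and all 22 naïve libraries, while Grik3, Grik5 and Grin2d lie near 0.

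The other kainate members were far lower. Grik4, which encodes a high-affinity kainate subunit (GluK4) that forms channels only together with GluK1 to GluK3 subunits, had 4.13, 9.78 and 6.87 FPKM in SNL males and 6.37, 8.36 and 6.70 FPKM in SNL females. In naïve males it ranged from 0.448 to 3.38 FPKM (median 2.73), and in naïve females from 2.26 to 5.30 FPKM (median 3.65). Every SNL library except male 1 thus exceeded the highest naïve library. Grik5, which encodes the high-affinity subunit GluK5, had medians of 0.407 FPKM in SNL libraries and 0.322 FPKM in naïve libraries. Grik3, which encodes the low-affinity subunit GluK3, had medians of 0.139 FPKM in SNL libraries and 0.323 FPKM in naïve libraries. Neither gene passed the filter in either experiment, and the authors' mean normalized counts for them were 73.0 and 37.2 over SNL libraries and 15.0 and 36.2 over naïve libraries, so their FPKM values rest on few reads.

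Among the AMPA members, Gria1 (GluA1) had 9.30, 8.07 and 9.18 FPKM in SNL males and 7.83, 9.55 and 4.97 FPKM in SNL females. In naïve males Gria1 ranged from 0.204 to 7.47 FPKM (median 2.48), and in naïve females from 1.69 to 9.77 FPKM (median 3.63). The SNL values were all above the naïve median, and 19 of the 22 naïve libraries were below every SNL library. Gria2, which encodes GluA2, the subunit whose edited form makes AMPA receptors impermeable to calcium, had 6.10, 6.94 and 2.75 FPKM in SNL males and 5.31, 4.33 and 10.2 FPKM in SNL females. Its naïve values ran from 3.45 to 11.04 FPKM in males (median 7.27) and from 4.42 to 10.3 FPKM in females (median 5.43). The SNL values of Gria2 spread across the naïve range, with SNL male 3 below it.

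Gria4 (GluA4) had 1.89, 2.58 and 3.23 FPKM in SNL males and 1.68, 1.88 and 5.16 FPKM in SNL females. Its naïve values ran from 3.09 to 8.03 FPKM in males (median 5.80) and from 2.57 to 6.45 FPKM in females (median 5.19). All 6 SNL libraries lay below the naïve median of Gria4, and 3 lay below every naïve library. Gria3 (GluA3) was low throughout, at 0.948, 0.838 and 0 FPKM in SNL males and 0.501, 0.818 and 1.95 FPKM in SNL females. In naïve libraries it ranged from 0.0134 to 1.86 FPKM in males (median 1.12) and from 0.867 to 2.98 FPKM in females (median 1.47), and it passed the naïve filter only.

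Grin1, the gene of the obligatory NMDA subunit GluN1, had 5.10, 12.7 and 5.06 FPKM in SNL males and 9.34, 11.95 and 5.91 FPKM in SNL females. In naïve libraries it ranged from 4.46 to 15.96 FPKM in males (median 10.3) and from 7.18 to 14.8 FPKM in females (median 10.04), so the SNL values lay inside the naïve range. Grin2d, which encodes GluN2D, had medians of 0.048 FPKM in SNL libraries and 0.047 FPKM in naïve libraries and passed neither filter. The authors' mean normalized counts for it were 23.0 over SNL libraries and 23.7 over naïve libraries.

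The order of the members by median FPKM in SNL libraries was Grik1, Gria1, Grin1, Grik4, Gria2, Gria4, Gria3, Grik5, Grik3 and Grin2d. In naïve libraries it was Grik1, Grin1, Gria2, Gria4, Grik4, Gria1, Gria3, Grik3, Grik5 and Grin2d. Only the step from Grik1 to Gria1 in SNL libraries separated 2 neighbours without overlap of their ranges. In the naïve libraries Grik1 exceeded Grin1 in 22 of 22 libraries although their ranges overlapped across libraries, and Grik4 exceeded Gria1 in 12 of 22, so the order of that last pair was not resolved. Likewise Gria1 exceeded Grin1 in 2 of 6 SNL libraries despite its higher median.

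The make-up of the AMPA class was described as each gene's share of the summed Gria1 to Gria4 FPKM, a ratio within a library that scaling does not alter. Gria1 made up 51.0%, 43.8% and 60.5% of the AMPA sum in SNL males and 51.1%, 57.6% and 22.4% in SNL females. In naïve libraries its share ranged from 2.77% to 38.0% in males (median 16.4%) and from 11.5% to 49.0% in females (median 21.3%). The share exceeded that of every naïve library in 4 of the 6 SNL libraries, and it was lowest in SNL female 3, which had the highest Gria2, Gria3 and Gria4 values of the SNL libraries. Gria4 made up a median 12.7% of the AMPA sum in SNL libraries (10.4% to 23.2%) and 32.7% in naïve libraries (12.9% to 46.9%). The Gria2 share was a median 34.0% in SNL libraries (18.1% to 45.7%) and 40.8% in naïve libraries (25.6% to 54.6%). The ratio of Gria1 to Gria2 FPKM had a median of 1.5 in SNL libraries and 0.448 in naïve libraries, with ranges of 0.489 to 3.34 and 0.0591 to 1.45. The AMPA sum itself had medians of 17.4 FPKM in SNL libraries (15.2 to 22.2) and 17.3 FPKM in naïve libraries (7.37 to 22.1).

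**Figure D2:**
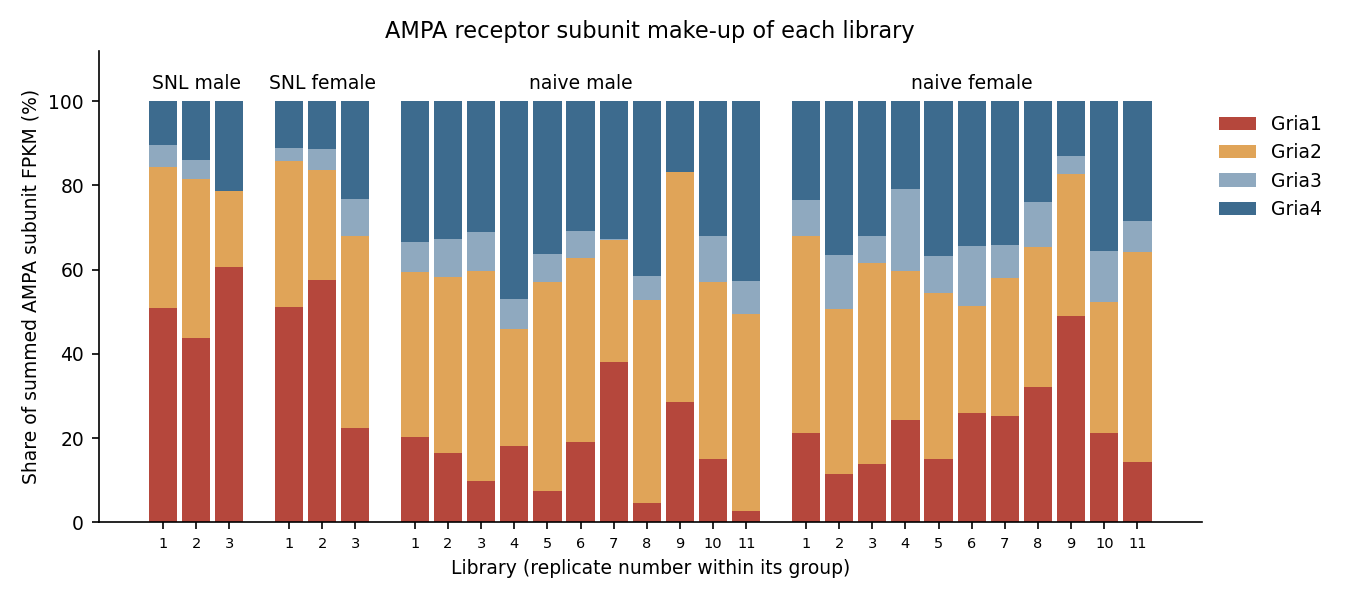
Each stacked bar is 1 library and shows the percentage of the summed AMPA subunit FPKM that Gria1, Gria2, Gria3 and Gria4 contributed, with SNL libraries on the left and naïve libraries on the right. The Gria1 segment spans 22.4% to 60.5% in SNL libraries and 2.77% to 49.0% in naïve libraries, and the Gria4 segment is 10.4% to 23.2% in SNL libraries and 12.9% to 46.9% in naïve libraries.

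No test was made between SNL and naïve libraries. Strain, sort, injury, dissected levels and expression table differ together between them and cannot be told apart, and in bulk samples fewer cells of a type and less RNA per cell cannot be told apart. None of the 7 members past a filter in either experiment had all 6 SNL values above all 22 naïve values, against 1.11% of the 13157 genes past either filter. Likewise 0 of 7 had all SNL values below all naïve values, against 1.72% of these genes. Without SNL male 1, Grik4 had every SNL value above every naïve value (1 of 7 members, against 1.39% of genes). The median level in SNL libraries over that in naïve libraries was 2.76 for Gria1, 2.13 for Grik4, 1.73 for Grik1, 0.833 for Gria2, 0.752 for Grin1, 0.611 for Gria3 and 0.395 for Gria4.

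Other cell markers differed between the same libraries. The summed FPKM of 8 satellite glia markers was 39.3 to 75.8 in SNL libraries and 1259 to 6555 in naïve libraries, with Cdh19 at 0 in the SNL females. Glul, also among the 8, made up most of the SNL sums and had its higher median there. Its medians were 54.9 FPKM in SNL libraries (37.0 to 71.5) and 29.5 FPKM in naïve libraries (21.8 to 52.1). The sum of 5 erythroid markers was 561 to 18891 FPKM in SNL libraries and 0.369 to 71.6 FPKM in naïve libraries. The 8 large-diameter neuron markers summed to 369 to 873 FPKM in SNL libraries and 293 to 1878 FPKM in naïve libraries, and Pvalb among them, a marker of proprioceptors, had medians of 0.339 FPKM in SNL libraries and 23.2 FPKM in naïve libraries. The 8 nociceptor markers summed to 4707 to 7222 FPKM in SNL libraries and 3837 to 25077 FPKM in naïve libraries, sums made up mostly of Calca (medians of 3891 FPKM in SNL libraries and 8543 FPKM in naïve libraries). Other nociceptor markers had higher medians in SNL libraries, among them Scn10a (133 FPKM in SNL libraries and 77.3 FPKM in naïve libraries) and Trpv1 (153 FPKM in SNL libraries and 83.3 FPKM in naïve libraries), and the nociceptor score, which weights the 8 genes equally, was 7.91 to 8.25 in SNL libraries and 6.57 to 8.66 in naïve libraries. The part of these differences in the subunit levels was not tested.

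The sexes were compared within each experiment by limma on log2(FPKM + 1), with Benjamini-Hochberg adjustment over all genes tested. In the SNL libraries 0 of the 6 tested members were called at an adjusted p under 0.05, against 0.0442% of 11303 genes (0.0265% higher and 0.0177% lower in males), and 0 of 6 had an unadjusted p under 0.05, against 3.69% of genes (1.11% higher and 2.57% lower in males). In the naïve libraries 0 of the 7 tested members were called, against 0.0543% of 12893 genes (0.0388% higher and 0.0155% lower in males). At an unadjusted p under 0.05, limma picked 2 of the 7 naïve members, Grik4 and Gria3, both lower in males, against 8.29% of genes (2.39% higher and 5.9% lower in males). The median male minus female difference on the log2 scale was -0.07 over the 6 SNL members and -0.36 over the 7 naïve members, against -0.08 and -0.07 over all tested genes of the same experiment. The naïve median was that of Grik1 and rested on male 11, without which it was -0.05, against -0.05 over all genes. Each library pools 2 mice, so these p-values measure the spread between such pools.

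Grik4 averaged 2.47 ± 0.956 FPKM in naïve males and 3.796 ± 0.928 FPKM in naïve females (SD, n = 11 each). The difference was -0.51 on the log2(FPKM + 1) scale (95% interval -0.90 to -0.12, limma p = 0.012, adjusted p = 0.595). A two-sided permutation test of Grik4 alone gave p = 0.00342, not adjusted over genes. The ranges overlapped, and males 7 (0.448 FPKM) and 11 (0.957 FPKM) were the lowest. With RIN as a covariate the difference was -0.43 (limma unadjusted p = 0.0579), and without the low-RIN males 3, 4 and 7 it was -0.37 (permutation p = 0.0214). The median RIN was 8.4 in naïve males (n = 10) and 9.1 in naïve females (n = 11). Grik4 had r = 0.487 with RIN (permutation p = 0.0258, n = 21), with an adjusted p of 0.241 over all relations described below. Without males 3 and 7 this r was 0.197 (permutation p = 0.413). After SNL, Grik4 averaged 6.93 ± 2.83 FPKM in males and 7.15 ± 1.07 FPKM in females (SD, n = 3 each), a difference of -0.10 on the log2 scale (95% interval -0.85 to 0.66, limma adjusted p = 0.979).

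Gria3 averaged 1.05 ± 0.634 FPKM in naïve males and 1.67 ± 0.658 FPKM in naïve females (SD, n = 11 each), with males 9 (0.0134 FPKM) and 7 (0.042 FPKM) lowest. Its difference was -0.42 on the log2 scale (95% interval -0.82 to -0.02, limma p = 0.0419, adjusted p = 0.595, permutation p = 0.0356). It was -0.33 without male 7 (limma p = 0.0858), -0.33 without male 9 (limma p = 0.0909) and -0.37 without males 3, 4 and 7 (permutation p = 0.0631), and its unadjusted limma p stayed under 0.05 in 18 of 32 alternatives. Over the naïve libraries no relation of Gria3 with neuron type markers passed adjustment. With the large-diameter score Gria3 had r = 0.487 (permutation p = 0.0205, adjusted p = 0.241) and rho = 0.451 (permutation p = 0.0363, adjusted p = 0.226). With the nociceptor score it had r = -0.247 (permutation p = 0.264, adjusted p = 0.521) and rho = -0.527 (permutation p = 0.0132, adjusted p = 0.185). Without males 11 and 5, the libraries farthest from the median nociceptor score, r for that score was -0.595 (permutation p = 0.00535, adjusted p = 0.15). The summed nociceptor markers, mostly Calca, had medians of 14948 FPKM in naïve males (4452 to 25077) and 9227 FPKM in naïve females (3837 to 20233). The nociceptor score, which weights the 8 genes equally, had nearly equal medians. They were 7.73 in naïve males (6.57 to 8.66) and 7.76 in naïve females (7.33 to 8.56). The part of these markers in the sex difference of Gria3 was not tested. Both Grik4 and Gria3 therefore failed the adjustment over all genes.

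**Figure D3:**
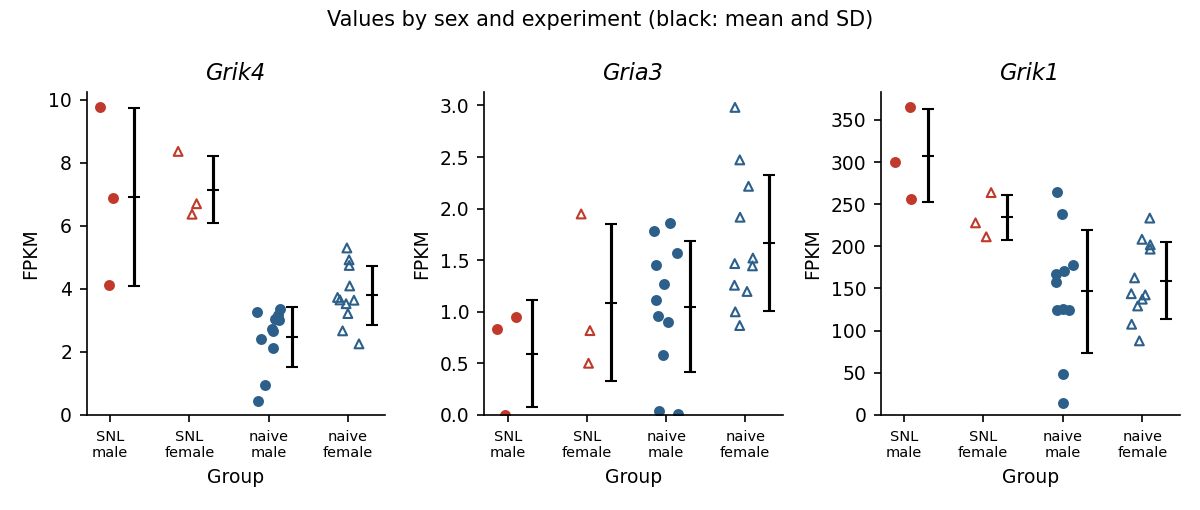
FPKM of Grik4, Gria3 and Grik1 in each library, with SNL males, SNL females, naïve males and naïve females along each horizontal axis. Points are libraries and the black marks beside them are the mean and SD. In naïve libraries the male and female ranges of Grik4 overlap between 2.26 and 3.38 FPKM, and the lowest Grik1 value is 13.8 FPKM in male 11.

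Grik1 averaged 307 ± 54.9 FPKM in SNL males and 234 ± 26.8 FPKM in SNL females (SD, n = 3 each), a difference of 0.38 on the log2 scale (95% interval -0.08 to 0.85, limma adjusted p = 0.945). The exact two-sided permutation p was 0.2, where 3 against 3 libraries allow no p below 0.1. SNL male 3 (256 FPKM) lay below SNL female 1 (264 FPKM), so the sexes overlapped. In naïve libraries Grik1 averaged 147 ± 72.8 FPKM in males and 159 ± 45.6 FPKM in females (SD, n = 11 each), with a difference of -0.36 (95% interval -1.07 to 0.36, limma adjusted p = 0.754). Without male 11 the naïve difference was -0.05.

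No SNL member had male and female values that did not overlap, while 3.58% of genes had all 3 males above all 3 females and 4.68% all 3 below. The intervals show how far the remaining sex differences were bounded. In naïve libraries the 95% interval ran from -0.24 to 0.55 on the log2 scale for Gria2, from -0.15 to 0.56 for Gria4, from -0.97 to 0.15 for Gria1 and from -0.46 to 0.29 for Grin1. After SNL the intervals were wider, from -1.20 to 0.65 for Gria2, from -0.93 to 0.86 for Gria4, from -0.41 to 0.93 for Gria1 and from -1.20 to 0.62 for Grin1.

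**Figure D4:**
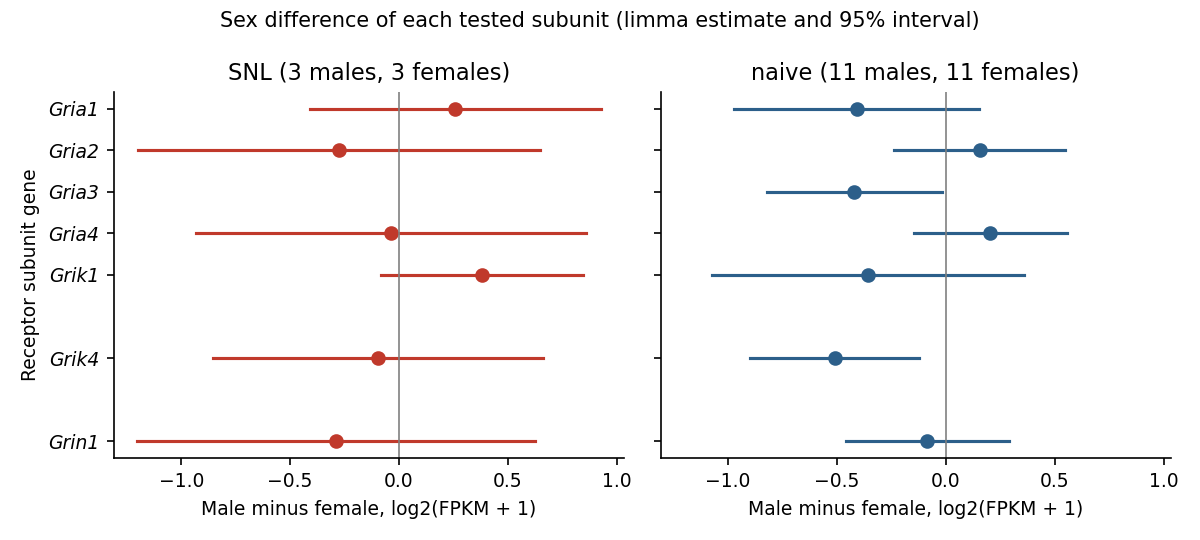
Male minus female difference of each tested subunit on the log2(FPKM + 1) scale, with SNL libraries in the left panel and naïve libraries in the right panel. Points are limma estimates and lines 95% intervals. Only the naïve intervals of Grik4 (-0.90 to -0.12) and Gria3 (-0.82 to -0.02) leave out 0, without adjustment over genes.

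Variation of the members between naïve libraries was set against 4 library measures, the satellite glia, large-diameter and nociceptor scores and RIN, in 28 relations. After Benjamini-Hochberg adjustment 1 relation passed by Pearson's r and 0 by Spearman's rho (4 and 6 at an unadjusted permutation p under 0.05). Grik1 went with the nociceptor score (r = 0.682, permutation p = 0.00115, adjusted p = 0.0322, and rho = 0.449, permutation p = 0.0369, adjusted p = 0.226, n = 22). Without the 2 libraries farthest from the median score, males 11 and 5, r was 0.339 (permutation p = 0.144), so the relation rests on them. Within males alone r was 0.783 (permutation p = 0.00631, adjusted p = 0.177, n = 11), within females 0.369 (permutation p = 0.265, n = 11), and without the libraries low in trunk Hox genes 0.785 (permutation p = 0.00047, n = 18). The relation of Grik1 with RIN did not pass adjustment (rho = 0.572, permutation p = 0.00764, adjusted p = 0.185, and r = 0.341, permutation p = 0.126, adjusted p = 0.367, n = 21). Its rho was 0.583 without the 2 libraries farthest from the median RIN, males 3 and 7. With the satellite glia score Grik1 had r = -0.057 (permutation p = 0.764) and rho = -0.189 (permutation p = 0.399) over all libraries, r = 0.032 within males (permutation p = 0.939, n = 11) and r = -0.617 within females (permutation p = 0.0422, adjusted p = 0.296, n = 11).

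**Figure D5:**
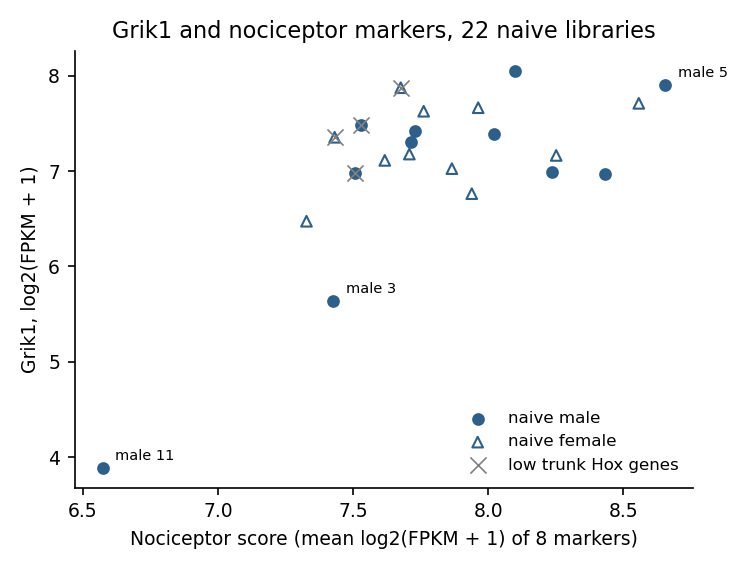
Grik1 as log2(FPKM + 1) against the nociceptor score, the mean log2(FPKM + 1) of 8 marker genes, for the 22 naïve libraries. Filled circles are males, open triangles females, and crosses mark the 4 libraries low in trunk Hox genes. Male 11 lies far to the lower left, and r is 0.682 over all libraries and 0.339 without males 11 and 5.

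The genes whose rank order over the 22 naïve libraries was most like that of each member, out of all genes tested, are given as a description. For Grik1 they were Tspan14 (Spearman rho 0.896) and Acpp (rho 0.884). Acpp encodes prostatic acid phosphatase, known as a marker of nonpeptidergic nociceptors. They included Vwa7 (rho 0.787) for Gria1, and were Scml4 (rho 0.747) and Grip1 (rho 0.720) for Gria2, and Nfasc (rho 0.829) and Abca6 (rho 0.814) for Gria3. Grip1 encodes a scaffold protein known to bind the GluA2 tail, and Nfasc encodes neurofascin, a cell adhesion molecule of nodes and paranodes. Gria4 went most closely with Tmem55a (rho 0.890) and Cep170 (rho 0.872), Grik4 with Nckipsd (rho 0.837) and Nomo1 (rho 0.792), and Grin1 with 4833439L19Rik (rho 0.857) and Pip4k2c (rho 0.810).

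Receptor partners were taken from lists of known auxiliary, trafficking and signalling proteins. Of 24 AMPA receptor partners, 15 were tested in SNL and 18 in naïve libraries, and limma called 0 between the sexes in either. Over all tested genes the share called was 0.0442% in SNL libraries and 0.0543% in naïve libraries. None of these partners reached an unadjusted limma p under 0.05, against 3.69% of SNL genes and 8.29% of naïve genes. The highest by naïve median were Nsf, a fusion ATPase that binds GluA2, at 251 FPKM in SNL libraries and 165 FPKM in naïve libraries, Olfm1, a secreted olfactomedin, at 45.8 FPKM in SNL libraries and 54.1 FPKM in naïve libraries, and Cpt1c, at 67.8 FPKM in SNL libraries and 49.4 FPKM in naïve libraries. Of the kainate receptor auxiliary proteins, Neto2 had medians of 1.74 FPKM in SNL libraries and 1.05 FPKM in naïve libraries, and Neto1 1.20 FPKM and 0.386 FPKM. Among 10 NMDA receptor partners 7 were tested in each experiment and 0 were called, with Camk2a, a calcium-dependent kinase subunit, at 50.9 FPKM in SNL libraries and 13.5 FPKM in naïve libraries, Srr, the serine racemase that makes the co-agonist D-serine, at 7.10 FPKM in SNL libraries and 10.8 FPKM in naïve libraries, and Fyn, a tyrosine kinase, at 6.81 FPKM in SNL libraries and 7.70 FPKM in naïve libraries.

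Of the RNA editing enzymes, Adarb1, which encodes ADAR2, the deaminase of the Q/R site, had medians of 5.17 FPKM in SNL libraries and 3.11 FPKM in naïve libraries, and Adar had 10.1 and 5.14 FPKM. Adarb2 was near 0, at 0.051 FPKM in SNL libraries and 0.0654 FPKM in naïve libraries, and 0 of the 2 editing genes tested were called between the sexes. Among the 8 metabotropic glutamate receptors, Grm7, a presynaptic receptor, led with 15.4 FPKM in SNL libraries and 11.7 FPKM in naïve libraries, followed by Grm8 (2.40 and 2.52 FPKM) and Grm4 (0.639 and 2.41 FPKM). Again 0 were called, of 2 tested in SNL and 3 in naïve libraries. For these and the editing genes, the share called over all tested genes was 0.0442% in SNL libraries and 0.0543% in naïve libraries.

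Of the other 8 ionotropic receptor genes, Grin3a had the highest median in both experiments. Grin3a, which encodes an NMDA subunit of the glycine-binding GluN3 group, had medians of 1.63 FPKM in SNL libraries and 1.52 FPKM in naïve libraries, and Grik2 (GluK2) had 0.967 and 1.05 FPKM. In naïve libraries these 2 of the 3 genes tested were lower in males at an unadjusted p under 0.05, against 5.9% of all genes, with log2 differences of -0.55 for Grin3a (limma p = 0.0171) and -0.54 for Grik2 (limma p = 0.0223), each at an adjusted p of 0.595. Grid1 had medians of 0.458 FPKM in SNL libraries and 1.35 FPKM in naïve libraries. Grin2a, Grin2b and Grin3b were listed at 0 in all 6 SNL libraries and at 0 in 15, 19 and 21 of the 22 naïve libraries, and Grin2c did not exceed 0.0117 FPKM in SNL libraries or 0.140 FPKM in naïve libraries.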

How the data were processed

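The authors aligned reads to mm10 with STAR, keeping unique alignments, and computed the deposited FPKM per library with Cufflinks (versions not given in the sources used here), from a kit that does not mark strand. The naïve and SNL tables were processed separately, so tests were run within each. From the deposited DESeq2 tables only the authors' mean normalized count, a pooled signal over the libraries of an experiment, was read. Their fold changes and p-values were not used. RIN is a deposited score, and 1 naïve library has none.

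Genes with at least 1 FPKM in at least 3 naïve or 2 SNL libraries of a sex were tested by limma 3.58.1 (R 4.3.3) with an intensity trend on log2(FPKM + 1), male minus female, with Benjamini-Hochberg adjustment. Fold changes on this scale understate low genes. Single members were also tested by permutation (100000 resamples, exact for SNL). In data simulated from these libraries, limma recovered 59 of 100 genes changed 2-fold and 99 of 100 changed 4-fold for the naïve comparison of 12893 genes, and 15 and 64 of 100 for the SNL comparison of 11303 genes. The changes were set on the log2(FPKM + 1) scale, with independent noise, in genes with a mean over 2 on that scale. These rates therefore do not cover Gria3, Grik4 and Gria1 in naïve libraries or Gria4 in SNL libraries, whose means were below 2 on that scale. Named genes were all members, the other ionotropic receptor genes, the 3 partners of each list with the highest naïve median, and the 2 genes most alike each member; some of these are not reported here. The members, lists and tests were chosen with earlier results of these data known. Of the partner lists, 1 symbol (Daao) matched no row and was left out. Alternatives covered pseudocounts, filters, scaling, covariates, a replicate block and each library left out in turn.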

Additional observations from a re-analysis of the deposited data

How the results depend on the processing

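In 323 refits of the 13 member differences between the sexes, 0 were called at an adjusted p under 0.05 by limma, and 311 kept their sign. The sign turned for Gria4 after SNL under quantile normalization (0.092) and median-of-ratios scaling (0.018), for Grik4 after SNL under quantile normalization (0.034), and for Grin1 in naïve libraries under quantile normalization (0.018) and without the low trunk Hox libraries (0.0053); the cause was not tested. Leaving out each library in turn gave -0.49 to 0.058 for Gria2, -0.26 to 0.34 for Gria4 and -0.35 to 0.19 for Grik4 after SNL, and -0.16 to 0.00096 for Grin1 in naïve libraries. The unadjusted p of naïve Grik4 was 0.00676 to 0.0579 over 32 alternatives and that of naïve Gria3 0.0236 to 0.145; their adjusted p was 0.399 to 0.876 and 0.442 to 0.876. Naïve members at an unadjusted p under 0.05 numbered 2, or 0 with RIN as a covariate and with a mean of at least 5 FPKM, and 1 under a pseudocount of 0.01, both rescalings and the satellite glia covariate, and without any single library among males 4, 8, 9 and 11 and females 2, 4, 6 and 10. Without male 7 they were Grik4 and Gria1 (limma p = 0.0462) in place of Gria3. The share of all tested genes under that p was 8.29% in the main naïve fit and 4.58% to 8.84% in these alternatives. After SNL the members at an unadjusted p under 0.05 numbered 0. Grik1 alone was under it with the replicate block (limma p = 0.0470, against 4.59% of genes), the satellite glia covariate (limma p = 0.0297, against 5.37%) and RIN (limma p = 0.0198, against 8.25%). For Grik1 after SNL the adjusted p was 0.573 to 1.00 over 16 alternatives.

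Over all genes, the naïve comparison called 7, or 1 with a mean of at least 5 FPKM, and 7 to 8 with a library left out. The naïve count was 6 with RIN as a covariate. It was 5 under quantile normalization, with the satellite glia covariate and without the low trunk Hox libraries. The SNL comparison called 5, or 0 with a pseudocount of 0.01, with no filter and with a mean of at least 5 FPKM. It called 7 with no intensity trend, and 5 to 13 with a library left out (8 without male 1, 13 without male 2, 13 without female 1). Of naïve genes at an unadjusted p under 0.05, 308 of 1069 were higher in males, 498 of 879 under quantile normalization and 474 of 1005 under median-of-ratios scaling. For SNL genes these were 126 of 417, 200 of 387 and 177 of 385. The replicate block called 5 genes in naïve and 0 in SNL libraries, and 0 members. The study processed the sexes in matched batches, but the labels do not say which libraries shared one, so the numbers were not taken to pair them. Deviations of 1 of 11 naïve and 2 of 3 SNL same-numbered pairs had r over 0.1 (-0.164 to 0.282 and -0.207 to 0.256). Of the libraries, 1 of 11 naïve males, 0 naïve females, 1 of 3 SNL males and 1 of 3 SNL females correlated best with its own number. These values cannot tell whether same-numbered libraries shared a batch. The count of members with all SNL values above all naïve values was 0 to 1 with an SNL library left out. The single relation with a library measure fell to 0 without the 2 farthest libraries, in males alone and in females alone. At a permutation p under 0.05, 2 naïve members were found, and 1 without males 3, 4 and 7, an alternative chosen after seeing the data. Only members were permuted, so no share over all genes stands beside these counts. The Grik1 and AMPA shares moved by less than 1 SD without the low trunk Hox libraries or without males 3 and 11, also chosen after seeing the data. Grik3, Grik5 and Grin2d had the lowest FPKM, which limits their precision.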
